A study of Mus musculus with 12 samples.

Results

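The 10 genes examined here (*Ngfr*, *Ncam1*, *L1cam*, *Gfap*, *Gap43*, *Scn7a*, *Cdh2*, *Gdnf*, *Shh* and *Olig1*) mark non-myelinating (Remak) Schwann cells or the repair state that Schwann cells enter after nerve injury. They were chosen as a list of names, matched by symbol, and all 10 were found, once each, among the 43432 genes counted. The RNA came from sciatic nerves at an age of 1 month, as 1 library from 1 nerve of each mouse, with 4 mice in each group. WT control mice had genotype *Mtmr2* wt/wt and *Mtmr2* KO mice had genotype *Mtmr2* -/-. The labels give both as without treatment, although the study's text also speaks of the KO group as given vehicle, and niacin-treated *Mtmr2* KO mice had the same genotype and received niacin. *Mtmr2*, which encodes a phosphoinositide phosphatase, is mutated in Charcot-Marie-Tooth neuropathy type 4B1, and its loss in the mouse gives myelin outfoldings. Niacin was injected intraperitoneally at 120 mg/kg from postnatal day 10 to day 21 and was then given by gavage as the slow-release form Niacin-SR from day 21 to day 30. The KO line was made on a 129/SvPas background, every cell of the nerve carries the mutation, and WT mice given niacin were not part of the 12 libraries. The comparisons ask whether transcripts of non-injured, mutant nerves differed from those of controls, and whether treatment moved them.

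Schwann cells that ensheath large axons make myelin, whereas Remak cells hold several thin axons in pockets without myelin. Remak cells keep genes that the myelinating programme turns off, such as the neurotrophin receptor *Ngfr*, the adhesion molecules *Ncam1* and *L1cam*, and the intermediate filament gene *Gfap*. After axon loss, myelinating cells turn on many of the same genes together with others that are nearly silent in the intact nerve, among them *Gdnf*, *Shh* and *Olig1*, under control of the AP-1 factor c-Jun. Whole nerve also holds axons, fibroblasts, perineurial cells, vessels, macrophages and adipocytes, and several of the 10 genes are expressed there too (*Gap43* in axons, *Ncam1* in muscle). In whole tissue, fewer cells of a type and less RNA per cell cannot be told apart.

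Libraries held 20763951 to 33191106 counts. Levels are given as CPM, which are TMM-scaled counts relative to the library total, and the p-values measure the spread between mice. In the edgeR fit over the 12 libraries this spread is pooled over the 3 groups. Each comparison thus also carries the spread of the group that is not in it. Of the 43432 genes, 17257 passed the filter on low counts and were tested, and 9 of the 10 genes were among them. *Gdnf*, with 1 to 9 counts in a library, was not. The library labelled *Mtmr2* KO replicate 4503 had *Mtmr2* at 143 CPM, within the 128 to 161 CPM of WT control. The other KO libraries and the niacin-treated libraries had 66.8 to 84.7 CPM, so in *Mtmr2* this library goes against its label. It lay on the KO side of every WT control library in *Lcn2* (51.0 CPM), *Gas1* (17.9 CPM), *Lep* (9.17 CPM) and *Plin1* (62.1 CPM). These are the listed genes that edgeR called for KO versus WT control, with this library counted as KO. Whether its label is right was not tested. Sex was not labelled, and 1 library of each group (4498, 4502 and 4506) had 13490 to 15320 counts of *Xist*, the transcript of the inactive X chromosome, against 62 to 187 in the other libraries. Replicate 4502, also labelled KO, differed from the rest in sequence composition. In the 20% of genes with the highest GC content its median deviation from the WT mean was -0.458 (log2), against -0.383 to -0.212 in the 4 niacin-treated libraries and -0.082 to 0.034 in the other 7. Its summed level of 10 neuronal markers was 313 CPM, against 79.1 to 142 CPM elsewhere. Replicates 4506 and 4507 of the treated group held 2654 and 2513 CPM of skeletal muscle markers, against 24.1 to 78.3 CPM in the other 10. The median gene had an SD of 0.16 (log2) in WT control, against 0.395 in *Mtmr2* KO and 0.221 in the treated group.

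Promoter sequences of RefSeq (GRCm38.p6) were at hand for 5 of the 10 genes. Those of *Scn7a*, the most abundant of them, *Gfap*, whose treated and untreated KO libraries did not overlap, and *Ngfr*, for comparison, are shown from 250 bases before to 20 bases after the start of transcription, 5′ to 3′ on the strand of the gene, which is the minus strand for all 3. They lie at chr2:66784891-66785160, chr11:102897181-102897450 and chr11:95587679-95587948. Capitals mark a GC box (GGGCGG or its complement) or a STAT motif (TTCNNNGAA).
Scn7a: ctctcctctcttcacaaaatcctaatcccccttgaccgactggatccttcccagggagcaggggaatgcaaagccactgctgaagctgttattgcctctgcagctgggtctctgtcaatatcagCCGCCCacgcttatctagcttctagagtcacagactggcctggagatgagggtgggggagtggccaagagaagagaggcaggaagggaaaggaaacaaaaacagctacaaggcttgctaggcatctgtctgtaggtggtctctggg
Gfap: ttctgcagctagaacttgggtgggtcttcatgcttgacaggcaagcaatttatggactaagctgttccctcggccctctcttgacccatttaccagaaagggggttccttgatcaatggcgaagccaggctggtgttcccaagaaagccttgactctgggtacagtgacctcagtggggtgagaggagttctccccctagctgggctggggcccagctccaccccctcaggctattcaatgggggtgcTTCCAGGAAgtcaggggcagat
Ngfr: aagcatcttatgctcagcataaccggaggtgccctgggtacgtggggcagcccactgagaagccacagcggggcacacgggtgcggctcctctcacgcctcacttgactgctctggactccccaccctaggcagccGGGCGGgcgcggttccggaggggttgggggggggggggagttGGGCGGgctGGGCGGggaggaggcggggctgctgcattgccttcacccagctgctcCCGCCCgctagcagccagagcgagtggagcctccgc
Both strands were searched over 300 bases, to 50 bases after the start, also for the AP-1 motif TGANTCA, which none of the 3 windows held. *Scn7a* had 1 GC box at -126, and *Ngfr* had 4 at -114, -72, -63 and -16. *Gfap* had a STAT motif at -2 and no GC box. Of 32544 distinct promoters of that length, 35.9% held a GC box, 8.33% a STAT motif and 7.79% an AP-1 motif. The *Ngfr* window was the richest in GC of the 3 (71.7%), with 55.7% in *Gfap* and 54.0% in *Scn7a*. A match is a run of letters and not a bound site.

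Per length of transcript, the 10 genes covered a wide range in WT control. In RPKM over all exons, *Scn7a* stood at 40.5 ± 3.45 (SD, n = 4) and *Ngfr* at 17.3 ± 2.24. *L1cam* (6.88 ± 0.903), *Cdh2* (5.99 ± 0.523) and *Ncam1* (4.96 ± 0.576) followed, and then *Gap43* (3.45 ± 1.23) and *Gfap* (3.34 ± 0.422). From *L1cam* to *Gfap*, each gene's mean ± SD overlapped that of the next. The genes were measured in the same 4 libraries, so this overlap does not show whether neighbours differed. *Olig1* (0.376 ± 0.202), *Shh* (0.161 ± 0.0988) and *Gdnf* (0.0434 ± 0.0299) formed a low tier, again with each mean ± SD overlapping that of the next. The middle of this order depends on which transcript is expressed: with the longest transcript as length, *Cdh2* came to 9.98 ± 0.872 RPKM, *L1cam* to 9.86 ± 1.29, *Ncam1* to 6.54 ± 0.761, *Gfap* to 5.31 ± 0.673 and *Gap43* to 3.70 ± 1.31. The pan-Schwann factor *Sox10*, a marker of the labelled tissue, stood at 155 RPKM over all exons.

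**Figure D1:**
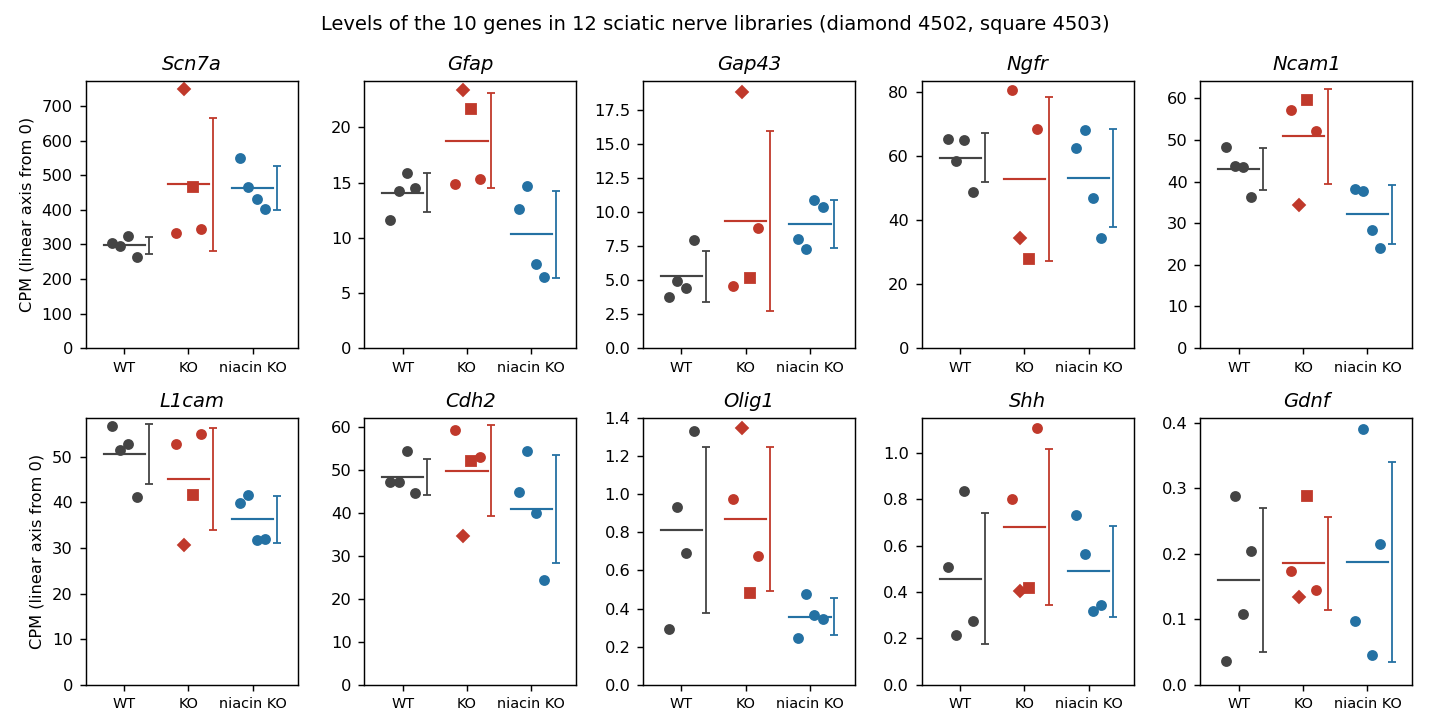
CPM (linear axis from 0) of the 10 genes by group, with 1 point per mouse, a line at the mean and a bar of 1 SD (n = 4). The 4 *Scn7a* values of WT control lie below all 8 values of both KO groups, whereas the highest *Gap43* value, 18.8 CPM, is that of replicate 4502 alone.

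*Scn7a* encodes Nax, a sodium channel relative that senses sodium concentration and is made by Remak cells. WT control libraries had 265 to 325 CPM (265, 294, 306 and 325). *Mtmr2* KO libraries had 333, 345, 468 (replicate 4503) and 748 CPM (replicate 4502), and niacin-treated libraries had 403, 429.9, 467 and 549.7 CPM. All 8 libraries of the KO groups were above the 4 of WT control, though the lowest KO value was only a little above the highest control value. The log2 fold change was 0.67 (95% interval 0.18 to 1.16) for KO versus WT control, with edgeR adjusted p = 0.171, and 0.64 (0.15 to 1.13) for niacin-treated KO versus WT control, with edgeR adjusted p = 0.135. Neither passed the test. The KO-versus-WT fold was 0.36 without replicate 4502 and 0.19 without both 4502 and 4503. By an exact two-sided permutation test of mean log2 CPM, unadjusted, p was 0.0286 in each, the smallest that 70 divisions of 8 libraries can give. Between the KO groups the log2 fold change was -0.03 (-0.52 to 0.45). *Scn7a* has a GC content of 40.2%, at percentile 6.9 of the genes tested, and its highest value came from replicate 4502, in which low-GC genes were high. With GC content and transcript length corrected for, library by library, its folds were 0.61 and 0.55 against WT control. Neither passed (edgeR adjusted p = 0.123 and 0.18). The groups still did not overlap, though the lowest corrected KO value (8.393, log2 CPM) was barely above the highest of WT control (8.382).

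*Gap43*, a membrane protein of growth cones that immature and repair Schwann cells also make, had 3.75, 4.39, 4.92 and 7.96 CPM in WT control. It had 4.56, 5.13, 8.80 and 18.8 CPM in *Mtmr2* KO and 7.24, 8.03, 10.4 and 10.8 CPM in treated KO. The highest value was that of replicate 4502, the library with the most neuronal marker RNA, and the part of that RNA in the value was not tested. The treated libraries were close to each other, and 3 of the 4 lay above every control library. Their summed neuronal markers, 115 to 142 CPM, were also all above the 79.1 to 105 CPM of WT control, and the part of this in *Gap43* was not tested. For KO versus WT control the log2 fold change was 0.82 (-0.02 to 1.66; edgeR adjusted p = 0.301), and without replicate 4502 it was 0.22. For niacin-treated KO versus WT control it was 0.79 (-0.05 to 1.63, edgeR adjusted p = 0.22), and 0.60 after correction for GC content and length.

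*Gfap*, the glial filament gene of Remak and repair cells, had 11.6, 14.2, 14.6 and 15.9 CPM in WT control and 14.9, 15.3, 21.7 and 23.4 CPM in *Mtmr2* KO. The higher KO pair were replicates 4503 and 4502. Niacin-treated libraries had 6.43, 7.63, 12.6 and 14.7 CPM, all below the lowest KO value, though 14.7 CPM was close to it. KO and WT control overlapped, and so did treated KO and WT control. Treated versus untreated KO gave a log2 fold change of -0.87 (-1.39 to -0.34), with edgeR adjusted p = 0.0905, which did not pass. It was 0.42 (-0.10 to 0.94) for KO versus WT control and -0.45 (-0.97 to 0.08) for treated KO versus WT control. Without both high libraries, 4502 and 4503, the treated-versus-KO fold was -0.56 (edgeR adjusted p = 0.163) and the KO-versus-WT fold 0.11, and without 4502 alone the first was -0.76 and passed (edgeR adjusted p = 0.0483). After correction for GC content and length the treated-versus-KO fold was -0.80 and both KO groups overlapped.

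Among the adhesion molecules, *Ncam1*, which binds its like on neighbouring membranes, had 36.2, 43.6, 43.7 and 48.3 CPM in WT control and 34.4, 52.1, 57.2 and 59.7 CPM in *Mtmr2* KO. Niacin-treated libraries had 24.0, 28.4, 37.8 and 38.3 CPM. The low KO value was replicate 4502, and the other 3 KO libraries were above every library of the other groups. Treated versus untreated KO gave -0.66 (-1.07 to -0.26) on the log2 scale, with edgeR adjusted p = 0.0911. It was 0.24 (-0.16 to 0.65) for KO versus WT control and -0.42 (-0.83 to -0.01) for treated KO versus WT control (edgeR adjusted p = 0.194). The last was -0.25 after correction for GC content and length (edgeR adjusted p = 0.363). Without replicate 4502 the treated-versus-KO fold was -0.82 and passed the test (edgeR adjusted p = 0.007), and after correction for GC content and length, with all libraries, it was -0.56 (edgeR adjusted p = 0.054). An antisense gene, *Gm11149*, overlaps exons of *Ncam1*, and whether the counting used strand is not known here.

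*L1cam*, an adhesion molecule of Remak cells and axons, had 41.2, 51.4, 52.9 and 56.8 CPM in WT control, 30.7, 41.7, 52.7 and 54.9 CPM in *Mtmr2* KO and 31.8, 31.9, 39.9 and 41.6 CPM in treated KO. Of the treated libraries, 3 were below every control library and the highest was just above the lowest control. The log2 fold change for treated KO versus WT control was -0.48 (-0.86 to -0.09), with edgeR adjusted p = 0.147, and -0.23 after correction for GC content and length. The KO-versus-WT fold was -0.17 (-0.55 to 0.22) and the treated-versus-KO fold -0.31 (-0.69 to 0.07). The latter fold of *L1cam* was -0.47 and passed without replicate 4502 (edgeR adjusted p = 0.0375). After correction for GC content and length it was -0.17 and did not pass (edgeR adjusted p = 0.498). Its exons overlap those of *Arhgap4* on the same strand. *Cdh2*, N-cadherin, joins Schwann cells to each other and to axons. It had 44.6 to 54.4 CPM in WT control, 34.7 to 59.3 CPM in *Mtmr2* KO and 24.4 to 54.3 CPM in treated KO. All groups overlapped, with log2 fold changes of 0.04 (-0.41 to 0.50), -0.28 (-0.74 to 0.17) and -0.24 (-0.70 to 0.22) in the order KO versus WT control, treated versus untreated KO and treated KO versus WT control.

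*Ngfr* encodes p75NTR, the low-affinity neurotrophin receptor, and is a defining marker of non-myelinating cells. WT control libraries had 49.0, 58.6, 65.0 and 65.5 CPM. *Mtmr2* KO libraries had 27.9 (replicate 4503), 34.5 (replicate 4502), 68.5 and 80.8 CPM, and niacin-treated libraries had 34.6, 46.9, 62.7 and 68.2 CPM. The KO group lay on both sides of the control group and was the most variable for this gene, with an SD of 25.7 CPM against 7.73 CPM in WT control. The log2 fold change was -0.17 (-0.82 to 0.48) for KO versus WT control, 0.00 (-0.64 to 0.65) between the KO groups and -0.16 (-0.81 to 0.48) for treated KO versus WT control. Without replicates 4502 and 4503 the KO-versus-WT fold was 0.33, and after correction for GC content and length that of treated KO versus WT control was 0.19, the opposite sign.

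The secreted ligands were at the limit of detection. *Gdnf*, a survival factor for motor and sensory neurons, had 1, 3, 6 and 8 counts in WT control, 3, 3, 5 and 9 in *Mtmr2* KO and 1, 2, 5 and 9 in treated KO. In a fit without the filter its log2 fold changes were 0.17, 0.02 and 0.19, with standard errors of 0.69 to 0.71, so a difference was not detectable at this depth. *Shh*, a ligand that repair cells make, had 0.216, 0.273, 0.509 and 0.835 CPM in WT control, 0.404, 0.417, 0.801 and 1.11 CPM in *Mtmr2* KO and 0.320, 0.343, 0.564 and 0.735 CPM in treated KO. These are 6 to 23 counts in a library, all groups overlapped, and genes on the other strand share its exons. Its log2 fold change was 0.56 (-0.46 to 1.58) for KO versus WT control and -0.46 (-1.50 to 0.58) for treated versus untreated KO.

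*Olig1*, a lineage factor of oligodendrocytes that injured Schwann cells turn on, was also low, with 5 to 39 counts in a library. It had 0.291, 0.690, 0.935 and 1.33 CPM in WT control and 0.481, 0.674, 0.9754 and 1.34 CPM in *Mtmr2* KO. Niacin-treated libraries had 0.245, 0.343, 0.366 and 0.477 CPM, the highest of them just under the lowest KO value. *Olig1* had a log2 fold change of -1.25 (-2.26 to -0.24) for treated versus untreated KO (edgeR adjusted p = 0.166) and -1.17 (-2.17 to -0.16) for treated KO versus WT control (edgeR adjusted p = 0.164), neither of which passed. It was 0.08 (-0.83 to 1.00) for KO versus WT control. The exons of *Olig1* overlap those of *Gm15966* on the other strand, and its GC content of 61.1% is at percentile 97.5 of the genes tested. After correction for GC content and length the treated and untreated KO libraries of this gene overlapped. The fold between them was then -1.14, and that of treated KO versus WT control -0.86.

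**Figure D2:**
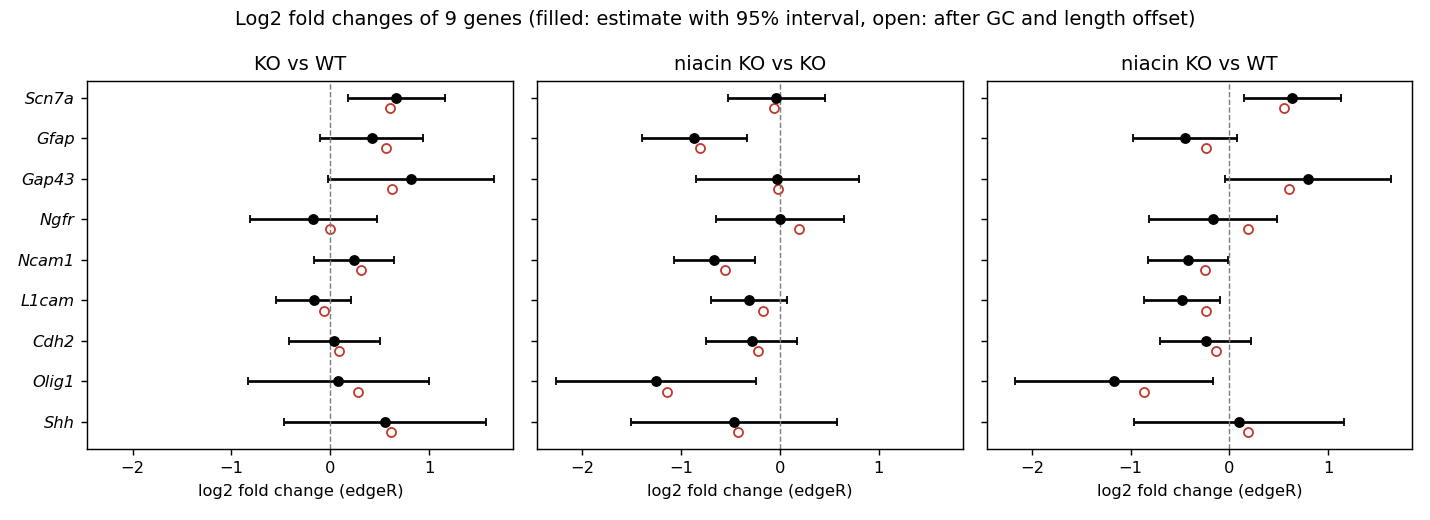
Log2 fold changes of the 9 genes tested, by comparison, from edgeR over the 12 libraries. Filled points with bars are estimates with 95% intervals, and open points are estimates after correction for GC content and length. The interval of *Scn7a* lies above 0 in both comparisons with WT control, and those of *Gfap*, *Ncam1* and *Olig1* lie below 0 for treated versus untreated KO, all before adjustment for the number of genes.

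For *Mtmr2* KO versus WT control, none of the 9 genes passed edgeR's test, where 0.267% of all genes tested did (46 of 17257). The smallest adjusted p of the 9 was 0.171, and 1 had an unadjusted p under 0.05, as did 17.2% of all genes. Once GC content and length were corrected for, *Scn7a*, *Gfap* and *Ncam1* did, as did 3166 of 17142 genes. *Scn7a* was the only gene of the 9 whose groups did not overlap. Of all genes tested, 9.32% had groups without overlap and 3.85% had them with KO higher. Estimated folds were above 0 for 7 of the 9 and below 0 for 2, with a median of 0.24 beside a median of 0.03 for all genes. DESeq2, limma-voom and edgeR on only the 2 groups also called none of the 9, where they called 3.77%, 0.626% and 0% of all genes.

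For niacin-treated versus untreated *Mtmr2* KO, none of the 9 passed edgeR's test, where 1.43% of all genes did (246 of 17257). The smallest adjusted p was 0.0905, and 3 had an unadjusted p under 0.05, as did 20.1% of all genes. The groups did not overlap for 2 of the 9, *Gfap* and *Olig1*, both lower with treatment, against 7.01% of all genes in either direction and 3.4% with treatment lower. Estimated folds were below 0 for 8 of the 9, with a median of -0.31 beside -0.04 for all genes. These untreated KO libraries are those of the comparison with WT control, so the 2 sets of folds share them. DESeq2 called *Ncam1* and *Gfap*, where it called 6.42% of all genes, and limma-voom with sample weights called *Ncam1*, *L1cam* and *Gfap*, where it called 11.6%. Without replicate 4502, edgeR called the same 3 as limma-voom, where it called 23.6% of all genes. Without both 4502 and 4503 it called *Ncam1* and *L1cam*, at 12.5% of all genes.

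For niacin-treated *Mtmr2* KO versus WT control, edgeR called none of the 9 and 0% of all genes, although 4254 genes (24.7%) had an unadjusted p under 0.05, among them 4 of the 9. DESeq2 called 1070 genes (7.56%) and none of the 9. The 4 were *Scn7a*, higher, and *Ncam1*, *L1cam* and *Olig1*, lower. Once GC content and length were corrected for, only *Scn7a* of the 9 had an unadjusted p under 0.05, as did 3154 of 17142 genes. Only *Scn7a* had groups without overlap, against 31.4% of all genes in either direction, 14.9% with treated KO higher and 16.6% with it lower. Estimated folds were above 0 for 3 of the 9 and below 0 for 6, with a median of -0.24 beside 0.02 for all genes. An edgeR fit of only these 8 libraries leaves out the spread of the untreated KO group, which the fit over the 12 libraries pools in. There *Scn7a*, *Gap43*, *Ncam1* and *L1cam* passed, where 33.9% of all genes did. Limma-voom called these 4 and *Gfap*, at 42.4% of all genes. Without replicate 4502, edgeR called *Scn7a* and *L1cam*, at 21.6% of all genes, and without 4502 and 4503 it called the 4, at 29.6%.

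The 9 genes tested did not all vary together across the 12 mice. Pearson correlations of log2 CPM, given as a description over libraries of 3 groups, ran from 0.833 for *Ncam1* with *Cdh2* to -0.821 for *L1cam* with *Gap43*. *L1cam* went with *Ncam1* (0.779), *Cdh2* (0.748) and *Ngfr* (0.700), and *Gap43* with *Scn7a* (0.663), while *Scn7a* ran against *L1cam* (-0.675). The genes most like them among all 17257, over the same 12 libraries, were *Tbc1d15* (0.984) and *Rrm2b* (0.974) for *Scn7a*, *Emg1* and *Rpl39* (each 0.985) for *Gap43*, *Nf1* (0.977) and *Hmgxb3* (0.967) for *L1cam*, and *Kif3c* (0.978) and *Prx* (0.977) for *Ncam1*. Those for *Ngfr* were *Kctd11* (0.963) and *D430019H16Rik* (0.953), those for *Cdh2* *Zfp12* (0.948) and *Sdc4* (0.946), and those for *Gfap* *Bcl2* (0.929) and *Trnp1* (0.928). *Shh* was nearest to *Prmt5* (0.864) and *Rps6ka5* (0.857), and *Olig1* to *Rnd1* (0.849) and *Slc47a2* (0.826). The libraries also shared their composition, and its part in these values was not tested.

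**Figure D3:**
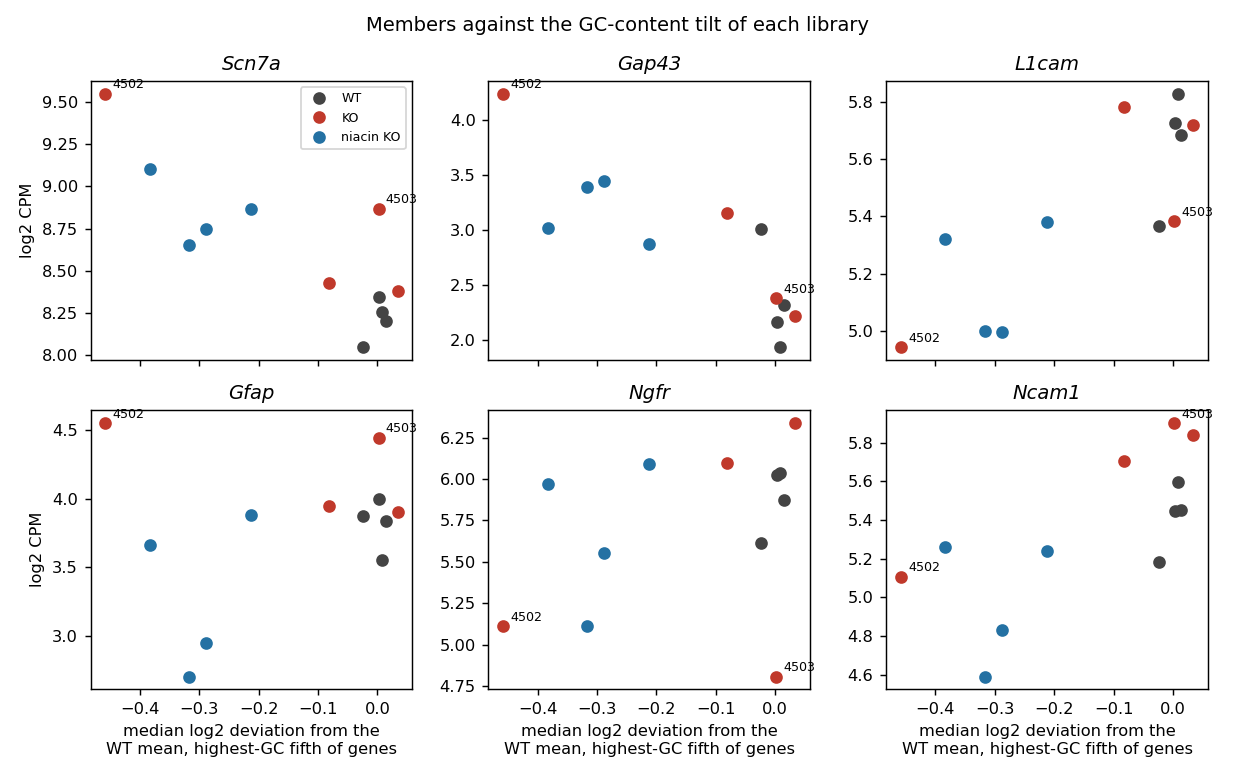
Log2 CPM of 6 of the genes against the median log2 deviation from the WT mean of the 20% of genes with the highest GC content, with 1 point per library. Replicate 4502 and the 4 niacin-treated libraries lie between -0.458 and -0.212, apart from the other 7, and *Scn7a* and *Gap43* are mostly higher and *L1cam* mostly lower there, with overlap.

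The libraries with the lowest level of high-GC genes were mostly those with high *Scn7a* and *Gap43* and low *L1cam*, although replicate 4503, without that composition, had *Scn7a* at 468 CPM and replicate 4504 had *Gap43* at 8.80 CPM. Correction for GC content and length left the sign of every estimated fold of the 9 genes but that of *Ngfr* in treated KO versus WT control. Among markers of other cells, all 10 neuronal markers had estimated folds above 0 for KO versus WT control, with a median of 1.15. For treated versus untreated KO all 10 were below 0, with a median of -0.48 and none called by edgeR over the 12 libraries. Without replicate 4502, the KO-versus-WT median was 0.50, with 9 of 10 above 0, whereas the pattern for treated versus untreated KO turned, with 7 of 10 above 0, a median of 0.14 and 1 called lower (*Uchl1*), where 23.6% of all genes were called. For treated KO versus WT control 9 of 10 were above 0, with a median of 0.42 and none called by edgeR over the 12 libraries. Without replicate 4502, where 21.6% of all genes were called, *Snap25*, *Nefm*, *Prph* and *Stmn2* were called higher. Pan-Schwann markers (6) had a median fold of 0.37 for KO versus WT control, all above 0. For treated versus untreated KO it was -0.39, with 5 of 6 below 0 and none called by edgeR over the 12 libraries. Without replicate 4502 these medians were 0.26 and -0.20, with 3 of 6 below 0 in the second and *Sox10* and *Erbb3* called lower, again where 23.6% of all genes were called. Their summed level was 3623 to 3842 CPM in WT control, 4570 to 6864 CPM in the KO libraries and 3678 to 4349 CPM in the treated ones. Markers of myelinating cells, macrophages, endothelium, perineurium and fibroblasts gave no edgeR call in any of the 3 comparisons with all libraries. Without replicate 4504, 2 of 9 myelinating markers were called higher for KO versus WT control, where 1.54% of all genes were called. Without replicate 4502, where edgeR called 23.6% of all genes for treated versus untreated KO, it called 4 of 9 myelinating markers lower, 3 of 6 macrophage markers higher, 2 of 6 endothelial markers lower, 2 of 5 perineurial markers higher and 2 lower, and 3 of 7 fibroblast markers higher and 2 lower. For treated KO versus WT control it then called 2 of 6 macrophage markers higher and 3 of 6 endothelial markers lower, where 21.6% of all genes were called. Also called lower there was 1 marker each of myelinating cells, perineurium and fibroblasts. After correction for GC content and length, the myelinating-cell genes *Ncmap* (1.00, edgeR adjusted p = 0.0376) and *Drp2* (1.08, edgeR adjusted p = 0.0456) and the neuronal *Snap25* (1.18, edgeR adjusted p = 0.0484) passed for KO versus WT control. Of all 17142 genes, 72 were called higher and 131 lower there. The pan-Schwann receptor gene *Erbb3* passed for treated versus untreated KO (-0.66, edgeR adjusted p = 0.0414), where 235 of all genes were called higher and 230 lower. Of 6 adipocyte markers, *Lep* and *Plin1* fell in KO versus WT control (log2 fold changes -2.03 and -1.84, edgeR adjusted p = 0.0364 and 0.0448), and *Lep* rose with treatment (1.84, edgeR adjusted p = 0.0382). Without replicate 4503 these did not pass (edgeR adjusted p = 0.0633, 0.0834 and 0.0687). With treatment, *Acta1*, *Ckm* and *Tnnt3* of the 6 muscle markers tested rose, with replicates 4506 and 4507 carrying the muscle RNA. Without replicate 4503 none of these 3 passed (edgeR adjusted p = 0.107, 0.107 and 0.104). Their part in the values of the 10 genes was not tested.

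Partners of *Ngfr* were taken as the 10 neurotrophins and co-receptors, of which 9 were tested. *Ntf3*, which encodes neurotrophin-3, a survival factor for Schwann cells and sensory neurons, rose with treatment, from 0.314, 0.385, 0.404 and 0.513 CPM in untreated KO to 0.735, 1.08, 1.46 and 1.97 CPM (log2 fold change 1.68 ± 0.36 SE, edgeR adjusted p = 0.044). The WT control libraries had 0.946, 1.01, 1.09 and 1.84 CPM, all above the KO libraries, but KO versus WT control did not pass (-1.58 ± 0.36 SE, edgeR adjusted p = 0.0707). Without replicate 4503 the rise with treatment did not pass (edgeR adjusted p = 0.0993), and without 4502 it did (edgeR adjusted p = 0.0138). EdgeR called none of the other 8 in any comparison with all libraries and no correction. *Ntrk2*, the BDNF receptor TrkB, had groups without overlap and was lower in both KO groups than in WT control, with folds of -0.66 ± 0.14 SE (edgeR adjusted p = 0.0595) and -0.58 ± 0.14 SE (edgeR adjusted p = 0.0833). *Sort1*, sortilin, which binds pro-neurotrophins together with p75NTR, had a fold of -0.53 ± 0.25 SE for KO versus WT control and -0.79 ± 0.25 SE for treated KO versus WT control, where its groups did not overlap (edgeR adjusted p = 0.115). After correction for GC content and length, *Ntf3* (-1.68, edgeR adjusted p = 0.0376) and *Ntrk2* (-0.59, edgeR adjusted p = 0.0356) passed for KO versus WT control. Of all 17142 genes in that fit, 72 were called higher and 131 lower. The median fold of the 9 was -0.37 for KO versus WT control, -0.04 for treated versus untreated KO and -0.32 for treated KO versus WT control.

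Of the 8 other genes of the GDNF family, 7 were tested and edgeR called none with all libraries. *Nrtn*, which encodes the ligand neurturin, was called lower for treated versus untreated KO without replicate 4502 (-1.39, edgeR adjusted p = 0.03), where 23.6% of all genes were called. Without replicate 4504 *Nrtn* was called higher for KO versus WT control (1.58, edgeR adjusted p = 0.0369), where 1.54% of all genes were called. For treated versus untreated KO, *Nrtn* was then called lower (-1.50, edgeR adjusted p = 0.0378) and *Gfra3*, the artemin receptor, higher (1.56, edgeR adjusted p = 0.0454), where 2.87% were called. *Gfra1*, the receptor that binds GDNF, was abundant at a mean of 156 CPM, with folds of 0.14 ± 0.15 SE, -0.03 ± 0.15 SE and 0.11 ± 0.15 SE in the 3 comparisons, and *Gfra2*, the neurturin receptor, had -0.48 ± 0.26 SE, 0.07 ± 0.26 SE and -0.41 ± 0.26 SE. Reads were thus ample for the receptor and few for the ligand.

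Of 14 other hedgehog genes, 13 were tested. *Gas1*, a membrane protein that helps hedgehog ligands bind, fell in KO versus WT control, from 55.8, 66.2, 66.9 and 78.6 CPM to 17.9, 25.8, 31.6 and 44.4 CPM (log2 fold change -1.16 ± 0.22 SE, edgeR adjusted p = 0.0497). In niacin-treated KO it had 49.3, 50.2, 52.8 and 64.5 CPM, above all untreated KO libraries (0.86 ± 0.22 SE), but this did not pass (edgeR adjusted p = 0.0684). With that correction for GC content and length the calls of *Gas1* changed places, at -0.96 for KO versus WT control (edgeR adjusted p = 0.0591) and 1.00 for treated versus untreated KO (edgeR adjusted p = 0.0386). Of all 17142 genes, that fit called 72 higher and 131 lower in the first comparison, and 235 higher and 230 lower in the second. Without replicate 4502 or 4503 the KO-versus-WT fold of *Gas1* was -1.10 or -0.98 and did not pass (edgeR adjusted p = 0.0647 and 0.0807). *Dhh*, the hedgehog ligand that Schwann cells themselves secrete, was far more abundant than *Shh*, with 85.2 ± 11 RPKM in WT control (SD, n = 4) against 0.161 RPKM. *Dhh* had folds of -0.27 ± 0.30 SE, -0.33 ± 0.30 SE and -0.60 ± 0.30 SE, and its receptor *Ptch1* had -0.22 ± 0.19 SE, -0.61 ± 0.19 SE and -0.83 ± 0.19 SE, in the order used above, with none called by edgeR with all libraries. For treated KO versus WT control, 12 of the 13 folds were below 0, with a median of -0.47 and none called by edgeR with all libraries. Groups did not overlap for 6, all lower, against 16.6% of all genes. Without replicate 4502, 6 of the 13 were called lower there, against 21.6% of all genes called in either direction, and 7 without 4502 and 4503, against 29.6%. After correction for GC content and length, 10 of 13 were below 0, 3 had groups without overlap, lower, against 10.6% of all genes, and the median was -0.13.

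**Figure D4:**
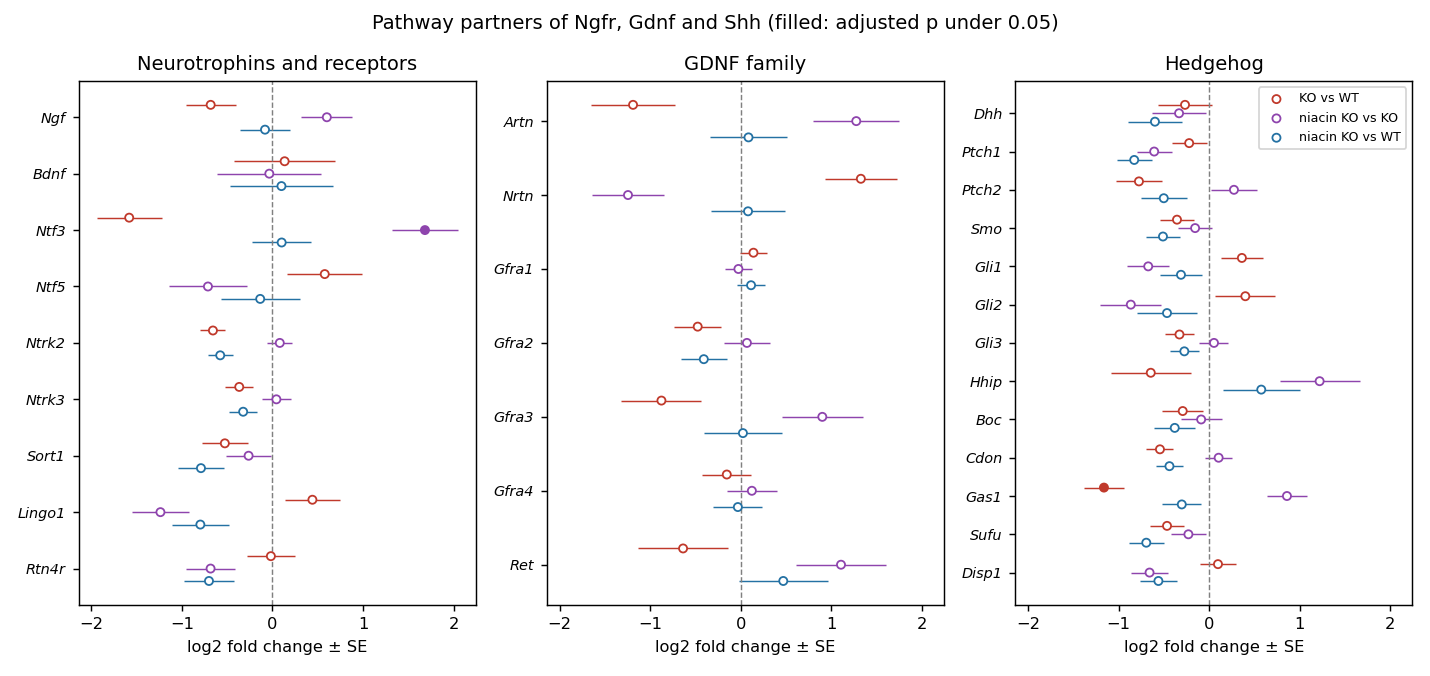
Log2 fold changes ± SE of the tested partners of *Ngfr*, *Gdnf* and *Shh* in the 3 comparisons, from edgeR over the 12 libraries, with filled points for an adjusted p under 0.05. Only *Ntf3*, for treated versus untreated KO, and *Gas1*, for KO versus WT control, are filled.

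Other genes of the same cell states were read from fixed lists. EdgeR called none of 5 other Remak genes in any comparison with all libraries. Without replicate 4502 it called *Csmd1* lower for treated versus untreated KO (-0.89, edgeR adjusted p = 0.0217), where 23.6% of all genes were called. *Cadm2* was higher in every KO library than in every WT control library (0.49 ± 0.15 SE, edgeR adjusted p = 0.128), and *Chl1* and *Gabbr1*, the 2 most abundant, had 0.21 ± 0.18 SE and -0.15 ± 0.19 SE for KO versus WT control. Of 8 regulators of the repair state, edgeR called none with all libraries. Without replicate 4502, 3 were called lower for treated versus untreated KO and 3 for treated KO versus WT control, where 23.6% and 21.6% of all genes were called. *Jun*, which drives that state after injury, had 41.1 to 48.4 CPM in WT control, 24.5 to 44.3 CPM in *Mtmr2* KO and 26.1 to 39.5 CPM in treated KO, with a fold of -0.33 ± 0.17 SE for KO versus WT control (edgeR adjusted p = 0.344) and -0.37 ± 0.17 SE for treated KO versus WT control (edgeR adjusted p = 0.207). *Zeb2* and *Stat3*, the most abundant 2, had 0.03 ± 0.17 SE and -0.02 ± 0.21 SE for KO versus WT control, and 0.31 ± 0.17 SE and -0.37 ± 0.21 SE for treated KO versus WT control. In the latter their groups did not overlap, nor did those of *Id2* (higher) and of *Jun*, *Sox2* and *Notch1* (lower). Of all genes tested, 31.4% were without overlap there. Of 13 trophic factors and cytokines, 10 were tested and edgeR called none with all libraries, with *Igf1* at -0.70 ± 0.35 SE and *Vegfa* at -0.66 ± 0.30 SE for KO versus WT control, and 1.22 ± 0.36 SE and 0.42 ± 0.30 SE for treated versus untreated KO. Without replicate 4502, *Igf1* and *Ccl2*, a chemokine gene, were called higher for treated versus untreated KO (1.66 and 1.82, edgeR adjusted p = 0.00598 and 0.0308), where 23.6% of all genes were called. For treated KO versus WT control, *Ccl2* was called higher without 4502 (1.80), where 21.6% were called, and without 4503 (1.82), where 1.74% were called. Without both, *Igf1* was called in the first (12.5% of all genes) and *Igf1* and *Ccl2* in the second (29.6%).

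Of 9 surface, matrix and filament genes of repair cells, *Lcn2*, which encodes the iron-binding protein lipocalin 2, rose in KO versus WT control (log2 fold change 3.07 ± 0.57 SE, edgeR adjusted p = 0.0457) and fell with treatment (-3.54 ± 0.59 SE, edgeR adjusted p = 0.0382). It had 2.15 to 6.25 CPM in WT control, 31.8, 44.2 and 51.0 CPM in 3 KO libraries, 5.29 CPM in the fourth, and 1.47 to 4.76 CPM in treated libraries. The KO rise rests on replicates 4501, 4502 and 4503, the last of which has *Mtmr2* at the control level, and *Lcn2* is also made by neutrophils and other cells. It did not pass for KO versus WT control without 4502 (2.89, edgeR adjusted p = 0.052) or without 4503 (2.78, edgeR adjusted p = 0.0834), nor with treatment without 4503 (-3.25, edgeR adjusted p = 0.0687). With all libraries edgeR called none of the other 8, with *Vim* at 0.51 ± 0.22 SE and *Spp1* at 0.40 ± 0.29 SE for KO versus WT control. In the families of the 10 genes, edgeR with all libraries called none of 6 other L1 and NCAM relatives and 10 cadherins and catenins. Nor did it call any of 4 tested lineage factors and 6 tested sodium channels. Without replicate 4502, edgeR called 1 cadherin or catenin higher and 3 lower, 3 lineage factors lower, 1 L1 or NCAM relative lower and 1 sodium channel higher for treated versus untreated KO, where 23.6% of all genes were called. For treated KO versus WT control it then called 1 cadherin or catenin higher and 4 lower, 3 lineage factors lower, 1 L1 or NCAM relative lower, and 1 sodium channel in each direction, where 21.6% of all genes were called. *Cdh11*, a mesenchymal cadherin gene, passed after correction for GC content and length for treated versus untreated KO (0.74, edgeR adjusted p = 0.0343). In that fit 235 of 17142 genes were called higher and 230 lower. *Sox10* had folds of 0.06 ± 0.23 SE for KO versus WT control and -0.77 ± 0.23 SE for treated versus untreated KO (edgeR adjusted p = 0.103), and *Foxd3* 0.05 ± 0.20 SE and -0.68 ± 0.20 SE. *Scn8a* and *Scn2a*, the most abundant of the other sodium channels, stood at 0.723 and 0.683 RPKM in WT control, far below *Scn7a*.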

How the data were processed

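Per the submitters' notes, alignment was by STAR to GRCm38. The authors deposited whole-number counts per Ensembl gene for the 12 libraries, without normalization. Not given in the sources used here were the counting program, annotation release and use of strand. Symbols came from a deposited table of the authors' comparisons, whose fold changes and p-values were not used. The 10 genes and all gene lists were chosen with earlier results of these data known.

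Counts were fitted in R 4.3.3 with edgeR 4.0.16 (filterByExpr, TMM, 1 quasi-likelihood model of the 12 libraries, no covariates, two-sided, Benjamini-Hochberg over 17257 genes, called at an adjusted p under 0.05). CPM use the total over tested genes. Intervals are the estimate ± t × SE at 95%. Groups without overlap were counted on CPM. RPKM divide CPM by the union of exons in GENCODE M21. The correction for GC content and length (splines with 5 degrees of freedom, known for 99.3% of genes) and the fit without replicates 4502 and 4503 were chosen after seeing the data. Alternatives were DESeq2 1.42.0, limma-voom (limma 3.58.1), DESeq2 size factors, only the 2 groups compared, other filters, *Xist* as covariate, and each library left out. The fits were tested on simulated data. The text names all 10 genes, *Mtmr2*, and of each list every called gene and the 2 most abundant. Further list genes (*Jun*, *Cadm2*, those called only with libraries left out), and the log2 (prior count 2) correlations, were described after their values were seen. Depth of 20763951 to 33191106 counts gave at most 39 counts per library for *Gdnf*, *Shh* and *Olig1*.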

Additional observations from a re-analysis of the deposited data

Results flagged for a closer look

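None of the 10 genes had a library that stood apart from its group by Dixon's test. Of 450 groups of 4 tested, from 150 genes (*Mtmr2*, the 10 genes and every tested gene of the partner and marker lists), 29 had one, where chance alone gives about 1 in 20. In *Mtmr2* KO replicate 4503, the library with *Mtmr2* at the control level, there were 5: *Csmd1* was highest at 43.2 CPM, *Gli2* at 32.02 CPM and *Lingo1* at 9.679 CPM, and *Atf3* was lowest at 7.788 CPM and *Cdh11* at 23.72 CPM. In KO replicate 4502 there were 6, all the highest of the group: *Gpm6b* at 2120.0 CPM, *Adipoq* at 443.4 CPM, *Adgre1* at 64.12 CPM and the neuronal *Nefh* at 60.94 CPM, *Nefm* at 59.86 CPM and *Prph* at 46.18 CPM. In KO replicate 4501, *Ntf5* was lowest at 0.2439 CPM. In WT control replicate 4500 there were 7, with *Ntf3* highest at 1.845 CPM, *Dpp4* at 55.75 CPM and *Pi16* at 279.8 CPM, and *Sox10* lowest at 407.6 CPM, *Stat3* at 99.96 CPM, *Sufu* at 20.77 CPM and *Pdgfra* at 216.6 CPM. Of the other WT control libraries, 4497 had *Fn1* highest at 778.6 CPM and *Ctnnd1* lowest at 26.44 CPM, 4498 had *Id2* lowest at 15.96 CPM, and 4499 had *Artn* highest at 0.7623 CPM. Of the treated libraries, 4505 had *Cd44* highest at 35.85 CPM and *Plin1* lowest at 69.06 CPM, 4507 had *Myh1* highest at 167.6 CPM and *Sox9* at 24.67 CPM, and 4508 had *Nefm* highest at 18.44 CPM and *Prph* at 20.46 CPM. The cause was not tested.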

How the results depend on the processing

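*Mtmr2* KO versus WT control called 0 of the 9 genes in every alternative. The number without overlap was 1 to 2 with single libraries left out and 3 without both 4502 and 4503, where 19.7% of all genes were without overlap. With all libraries 9.32% of all genes were, and overlap is lost more easily with fewer libraries. The counts with libraries left out are thus not read as particular to the 9. For treated versus untreated KO, the number called was 0 by edgeR with all libraries, 2 by DESeq2 and 3 by limma-voom. It was 0 to 3 with single libraries left out and 2 without both. The number without overlap was 0 after correction for GC content and length (8.5% of all genes), 2 to 4 with single libraries left out (27.3% of all genes without 4502, which gave 4) and 7 without both (34.6%). For treated KO versus WT control, 5 were called by limma-voom, 4 with only these groups fitted, 0 to 2 with single libraries left out and 4 without both. With single libraries left out, 1 to 4 were without overlap (2 without 4497, 4 without 4500, 3 without 4506 and 2 without 4502). With all libraries 31.4% of all genes were without overlap, a share that is not matched to these settings, because overlap is lost more easily with fewer libraries. These counts are therefore not read as particular to the 9. Signs turned in estimates near 0. In KO versus WT control, *Ngfr* was 0.0238 by limma-voom, 0.33 without both and -0.45 to 0.0414 with single libraries left out, *Cdh2* -0.0161 without a filter and -0.0575 to 0.18, *Olig1* -0.20 to 0.43, and *L1cam* 0.10 without both. In treated versus untreated KO, *Ngfr* was -0.31 by limma-voom, -0.0011 with DESeq2 size factors or at least 10 counts in every library, -0.50 without both and -0.21 to 0.29 with single libraries left out. *Gap43* was 0.55 by limma-voom, 0.0164 without a filter, 0.11 with *Xist* as covariate, 0.45 without both and -0.25 to 0.55. *Scn7a* was 0.27, 0.0057, 0.0253, 0.44 and -0.17 to 0.26 in the same order. In treated KO versus WT control, *Shh* was -0.24 by limma-voom and -0.16 to 0.55 with single libraries left out, and *Ngfr* 0.19 after correction for GC content and length. The cause was not tested. Other alternative estimates of the 9 genes kept their sign: 500 stayed on the same side of the threshold and 25 passed it. Calls in the partner and marker lists moved with the setting. The highest number for KO versus WT control was reached by DESeq2 (3.77% of all genes called), and was 2 neurotrophin genes, 2 hedgehog genes, 1 each of the GDNF family, the repair surface and matrix genes, the trophic factors and the sodium channels, and 3 neuronal markers, with no Remak gene, repair regulator, cadherin or catenin, lineage factor or L1 or NCAM relative in any setting. For treated versus untreated KO it was reached without 4502 (23.6%), and was 3 neurotrophin genes, 5 hedgehog genes, 2 repair surface and matrix genes, 3 repair regulators, 2 trophic factors, 1 Remak gene, 4 cadherins and catenins, 3 lineage factors, 1 L1 or NCAM relative and 1 neuronal marker, except for 2 of the GDNF family without 4504 (2.87%) and 2 sodium channels by DESeq2 (6.42%). For treated KO versus WT control it was reached by limma-voom (42.4%), and was 5, 8, 4, 6, 2, 0, 6, 3 and 2 of the same 9 lists up to the L1 and NCAM relatives, 1 of the GDNF family and 2 sodium channels, except for 5 neuronal markers with only these groups fitted (33.9%). The lowest number was 0 in each list. A minimum of 10 counts in every library removed *Shh* and *Olig1*. No paired analysis was possible because the groups share no replicate numbers. Depth limits *Gdnf*, *Shh* and *Olig1*.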
